A study of Mus musculus with 26 samples.

Results

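The 9 arrays described here hold immortalized mouse embryonic fibroblasts infected with a pBabe retrovirus carrying human c-myc, 3 arrays from each of the parental lines WA, WB and WC, out of 26 arrays in all. They were chosen by their labels alone: parental line and vector. The other arrays carry the same 3 lines with v-src (8 arrays, 2 of them from WB) or with the empty pBabe-puro vector (9 arrays), and the series was made to test an expression signature of anchorage-independent growth. All groups therefore share immortalization and retroviral infection. Each letter is 1 parental line, so a difference between WA, WB and WC includes everything that separates those lines. Nothing in the labels says that the 3 arrays of a line came from separate cultures or infections, so that a p-value here measures array-to-array spread and may cover technical variation alone.

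Mouse embryonic fibroblasts are a mixed population grown from a minced embryo, and they keep part of the positional identity of the tissue they came from, recorded above all in the Hox genes. They divide for a limited number of passages until the p19ARF and p53 barrier stops them, and immortal lines arise from the survivors. c-MYC is a basic helix-loop-helix transcription factor that pairs with MAX at E-box sequences and is known for driving ribosome production, nucleotide synthesis and cell division, and its excess normally represses the cell's own Myc gene.

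Values are MAS5 signals on a linear scale, called intensity below, brought to the same trimmed mean on every array. Differences are given on the log2 scale after adding 23 to each intensity, always as the first line named minus the second, which understates the change of dim genes. A gene was called when its adjusted p from limma was under 0.05, with Benjamini-Hochberg adjustment over 13018 genes, of which the 12525 on the 19 autosomes are described. An intensity near 0 is a level close to background and not a call of absence.

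The parental line was the main axis among the c-myc arrays. Over the autosomal genes, 2 arrays of the same line had a correlation of 0.959 to 0.981, whereas 2 arrays from different lines had 0.919 to 0.942. These correlations run over genes, which are not replicates. Of the variance over the autosomal genes, 64.8% lay between lines, and the first 2 principal components, holding 33.8% and 31.2% of it, separated all 3 lines. WC replicate 1 had the lowest mean correlation to its own group, 0.963. WC replicates 2 and 3 were close, at 0.97 and 0.966. Counts of genes that stand apart in a line are also given without WC replicate 1. Of the F test counts of the gene lists below, only that of ribosome biogenesis moved by over 1.5 times without it. The arrays' median intensities ran from 105.2 to 134.6. The ratio of 3' to 5' signal of the beta-actin control lay at 1.13 to 1.19 in WA, 1.15 to 1.21 in WB and 1.10 to 1.14 in WC, and that of the Gapdh control at 0.776 to 0.798 in WA, 0.782 to 0.812 in WB and 0.806 to 0.848 in WC.

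**Figure D1:**
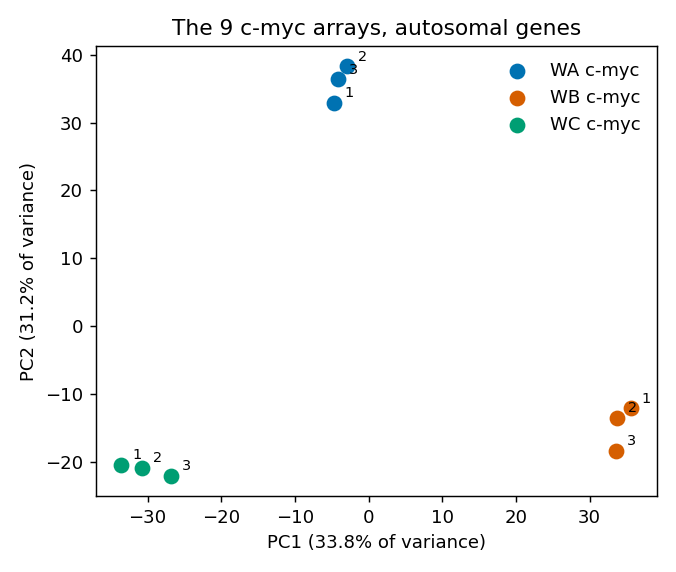
Principal components of the 9 c-myc arrays over the autosomal genes tested, with the first component (33.8% of the variance) on the horizontal axis, the second (31.2%) on the vertical axis and 1 point per array. The 3 arrays of each line lie together and the 3 lines lie apart.

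The lines also differ by sex-linked transcripts, a check that involves no autosomal gene. Xist, which silences an X chromosome in female cells, had intensities of 4970 to 6100 in WA, 309 to 389 in WB and 6530 to 6960 in WC. The Y-linked gene Kdm5d had 62.5 to 70.4 in WA, 321 to 398 in WB and 44.9 to 76.7 in WC, and Eif2s3y had 1.01 to 36.5 in WA, 391 to 472 in WB and 2.38 to 9.35 in WC. WB thus stood apart from both others on these genes, and sex and line cannot be told apart in the comparisons that involve WB. Markers of fibroblasts were bright in all lines: the 16 of them summed to 113500 to 128700 in WA, 124200 to 136800 in WB and 101600 to 114200 in WC. Thy1, a surface protein used to sort fibroblasts, was lower in WC, at 4580, 4840 and 4630 in WA, 8800, 8330 and 7590 in WB, and 947, 812 and 735 in WC.

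Of the 12525 autosomal genes, 4422 (35.3%) differed among the 3 lines by the F test. WA against WB gave 1503 genes higher in WA (12%) and 1439 lower (11.5%). WA against WC gave 1179 higher in WA (9.41%) and 1316 lower (10.5%), and WB against WC gave 1397 higher in WB (11.2%) and 1608 lower (12.8%). At 2-fold or more the counts were 237 higher (1.89%) and 437 lower (3.49%) for WA against WB, 245 higher (1.96%) and 426 lower (3.4%) for WA against WC, and 369 higher (2.95%) and 351 lower (2.8%) for WB against WC.

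A gene is said to stand apart in a line when it was called by the F test and against both other lines in the same direction and none of its 3 arrays overlapped the other 6. WA stood apart with 475 genes up (3.79%) and 553 down (4.42%), WB with 698 up (5.57%) and 698 down (5.57%), and WC with 554 up (4.42%) and 498 down (3.98%). Without WC replicate 1 these counts were 614 up and 689 down in WA, 802 up and 825 down in WB, and 641 up and 673 down in WC.

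Some of these differences were also called where no oncogene was added. In the empty vector arrays, whose arrays are different ones from the same lines, 4619 genes (36.9%) were called by the F test, and 2794 were called with both vectors, which is 63.2% of the c-myc calls and 60.5% of the empty vector calls. In either direction, WA against WB gave calls for 23.5% of genes with c-myc and 19.8% with the empty vector, WA against WC for 19.9% with c-myc and 23.7% with the empty vector, and WB against WC for 24% with c-myc and 27.5% with the empty vector. Genes called with both vectors made up 42.8% of the c-myc calls and 50.9% of the empty vector calls for WA against WB, 55.3% and 46.4% for WA against WC, and 56.9% and 49.7% for WB against WC. Among these shared genes, 1176 of 1260 had the same sign for WA against WB, 1338 of 1379 for WA against WC and 1664 of 1711 for WB against WC. A direct test, the line difference with c-myc minus the line difference with the empty vector, called 2036 genes (16.3%).

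The genes that record position in the embryo differed by line. Of 39 Hox genes listed, 33 had a probe set, 20 passed the intensity filter and 14 of those were called by the F test, against 35.3% of all autosomal genes. A Hox gene that is on in 1 line can pass the filter through that line alone, so this share is a description. WB stood apart upward for 6 of them, Hoxb2, Hoxb6, Hoxc4, Hoxc5, Hoxc6 and Hoxc8, and WC for 4, Hoxa9, Hoxa10, Hoxa11 and Hoxd13 (background 5.57% and 4.42%), with the same counts of 6 and 4 without WC replicate 1. In vertebrate embryos the 5' members Hoxa9 to Hoxa11 and Hoxd13 pattern the limb and the posterior trunk, and Hoxc4 to Hoxc8 the neck and thorax.

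Hoxc8 had intensities of 17.5, 24.9 and 27.3 in WA, 4540, 5050 and 4460 in WB, and 7.49, 19.4 and 42 in WC. Its difference was -6.67 ± 0.26 (SE) for WA minus WB (adjusted p = 4.64e-09) and 6.74 ± 0.26 for WB minus WC (adjusted p = 4.41e-09). It was bright in every WB array and near background in all others. Hoxc5 was at 33.8, 38.5 and 7.38 in WA, 1080, 1220 and 1540 in WB, and 24.7, 57.2 and 42 in WC. Hoxc4 was at 25.5, 9.51 and 25.9 in WA, 1020, 818 and 793 in WB, and 11.7, 63.7 and 16.4 in WC. All 3 neighbours of the Hoxc cluster thus showed the same split without overlap.

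Hoxa11 had intensities of 136, 108 and 152 in WA, 128, 138 and 207 in WB, and 1550, 1480 and 1500 in WC. Hoxd13, the last gene of its cluster and needed for digits, had 93.6, 92.4 and 108 in WA, 84.6, 149 and 129 in WB, and 1470, 1410 and 1160 in WC. Their differences for WA minus WC were -3.32 ± 0.18 (adjusted p = 1.32e-07) and -3.50 ± 0.20 (adjusted p = 1.55e-07), and for both genes WA and WB overlapped. Hoxa10 was at 52.6, 59.5 and 66.7 in WA, 64.2, 53.3 and 149 in WB, and 3290, 1880 and 2020 in WC, a difference of -4.83 ± 0.30 for WA minus WC (adjusted p = 3.27e-07), while a second, dim probe set of the gene gave -0.66.

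Other transcription factors of regional identity showed the same kind of split. Of 59 listed, 40 autosomal genes passed the filter and 28 were called by the F test (70%, background 35.3%). WA stood apart upward for 3 of them (background 3.79%) and downward for 9 (4.42%), WB upward for 5 (5.57%) and downward for 4 (5.57%), and WC upward for 11 (4.42%) and downward for 4 (3.98%). Without WC replicate 1 these were 3 and 10 in WA, 6 and 7 in WB, and 11 and 5 in WC. As with the Hox genes, a factor that is on in 1 line can pass the filter through that line alone, so these shares are a description. Tbx18, a T-box factor of the proximal limb and the heart and ureter mesenchyme, had 384, 392 and 392 in WA, 603, 595 and 547 in WB, and 3240, 2820 and 2410 in WC (WA minus WC -2.78 ± 0.11, adjusted p = 1.25e-08). Foxd1, a forkhead factor of kidney stroma, had 10.1, 3.57 and 26 in WA, 22.4, 2.41 and 8.48 in WB, and 1290, 1220 and 729 in WC (WA minus WC -4.93 ± 0.36, adjusted p = 1.29e-06). Both were therefore several times brighter in each WC array than in any WA or WB array. Irx3, an Iroquois factor of limb and neural patterning, was graded, at 318, 236 and 269 in WA, 1060, 1190 and 1130 in WB, and 3020, 3220 and 3790 in WC.

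Of the 20 Hox genes tested, 1 was called by the test of c-myc against empty vector line differences, and of the 40 other factors 12 were, beside 16.3% of all autosomal genes. Hoxc8 averaged 21.9 in WA, 6050 in WB and 54.0 in WC with the empty vector, and Hoxa11 averaged 139 in WA, 141 in WB and 1370 in WC. These are the same lines that were high with c-myc. Irx3 kept the order of the lines, with empty vector means at 477 in WA, 636 in WB and 3640 in WC, but its WA minus WB difference was larger with c-myc, a change of -1.56 ± 0.16 (adjusted p = 4.41e-07).

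**Figure D2:**
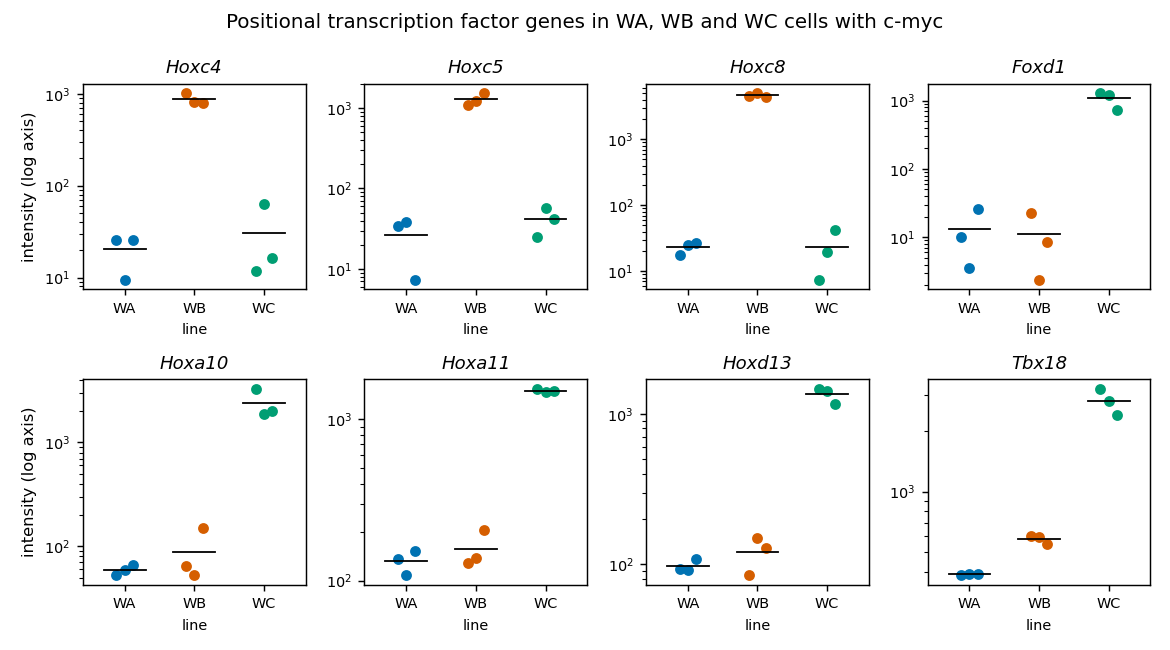
Intensity (log scale) of position genes in each of the 9 c-myc arrays, 1 point per array and a bar at the mean of each line. Hoxc4, Hoxc5 and Hoxc8 are high in WB alone, and Hoxa10, Hoxa11, Hoxd13, Foxd1 and Tbx18 in WC.

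The widest contrast within a pathway was in genes that respond to ERK, the kinase at the end of the RAS cascade. ERK activity induces immediate early transcription factors such as FOS and EGR proteins, and then its own inhibitors: DUSP phosphatases, which dephosphorylate ERK, and Sprouty proteins, which act upstream of it. Of 31 genes listed, 29 autosomal genes were tested and 25 were called by the F test (86.2%, against 35.3% of all). WB stood apart upward for 20 of the 29, against 5.57% of all autosomal genes, and the count was 20 without WC replicate 1 as well. The median difference was -1.39 for WA minus WB, -0.24 for WA minus WC and 1.30 for WB minus WC, beside medians over all genes tested within 0.04 of 0.

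Dusp6, a phosphatase that acts on ERK in the cytoplasm, had intensities of 404, 393 and 357 in WA, 3710, 3160 and 3450 in WB, and 386, 365 and 552 in WC. Its difference was -3.09 ± 0.14 for WA minus WB (adjusted p = 2.09e-08) and 2.94 ± 0.14 for WB minus WC (adjusted p = 3.95e-08), and for WA minus WC it was -0.14 (adjusted p = 0.538). WB lay above both other lines on every array, and WA and WC overlapped. Dusp5, a nuclear ERK phosphatase, had 122, 113 and 34.5 in WA, 2190, 1780 and 2360 in WB, and 192, 395 and 361 in WC. Dusp4, also nuclear, had 133, 84.5 and 98.5 in WA, 3240, 2700 and 3600 in WB, and 14.5, 7.61 and 6.42 in WC, so that all 3 lines differed.

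The zinc finger factors of the EGR family followed. Egr3 was at 76.3, 58.2 and 56.8 in WA, 1500, 1590 and 1610 in WB, and 130, 107 and 174 in WC, a difference of -4.20 ± 0.19 for WA minus WB (adjusted p = 1.62e-08), and -1.01 by its other probe set. Egr2 was at 116, 121 and 102 in WA, 984, 1150 and 1250 in WB, and 144, 140 and 147 in WC, a difference of -3.08 ± 0.16 for WA minus WB (adjusted p = 4.68e-08). In both genes the WB arrays lay above all others.

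The line differences of most ERK genes were of another size with the empty vector. There the median difference of the same 29 genes was 0.08 for WA minus WB, -0.03 for WA minus WC and 0.05 for WB minus WC. For WA against WB 4 were called higher (background 9.54%) and 4 lower (background 10.2%). For WA against WC the counts were 8 higher (background 11.6%) and 5 lower (background 12.2%). For WB against WC they were 9 higher (background 14%) and 7 lower (background 13.5%). The medians near 0 thus cover genes called in both directions. The test of c-myc against empty vector differences called 22 of the 29 (background 16.3%). Dusp5 had 533, 501 and 669 in WA, 572, 705 and 579 in WB, and 470, 754 and 635 in WC with the empty vector, where the lines overlapped, and its WA minus WB difference changed by -4.22 ± 0.38 (adjusted p = 5.79e-08). Dusp6 averaged 385 in WA, 3440 in WB and 434 in WC with c-myc, against 1440 in WA, 1320 in WB and 715 in WC with the empty vector, a change in the WA minus WB difference of -3.17 ± 0.22 (adjusted p = 1.53e-09). For Dusp6 the c-myc mean was thus below the empty vector mean in WA and WC and above it in WB. Dusp4 averaged 777 in WA, 2470 in WB and 7.62 in WC with the empty vector, so WB was highest there too. Its WA minus WB difference changed by -2.90 ± 0.32 (adjusted p = 1.18e-06). Its WB minus WC difference changed by 0.27 ± 0.32 (adjusted p = 0.708).

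**Figure D3:**
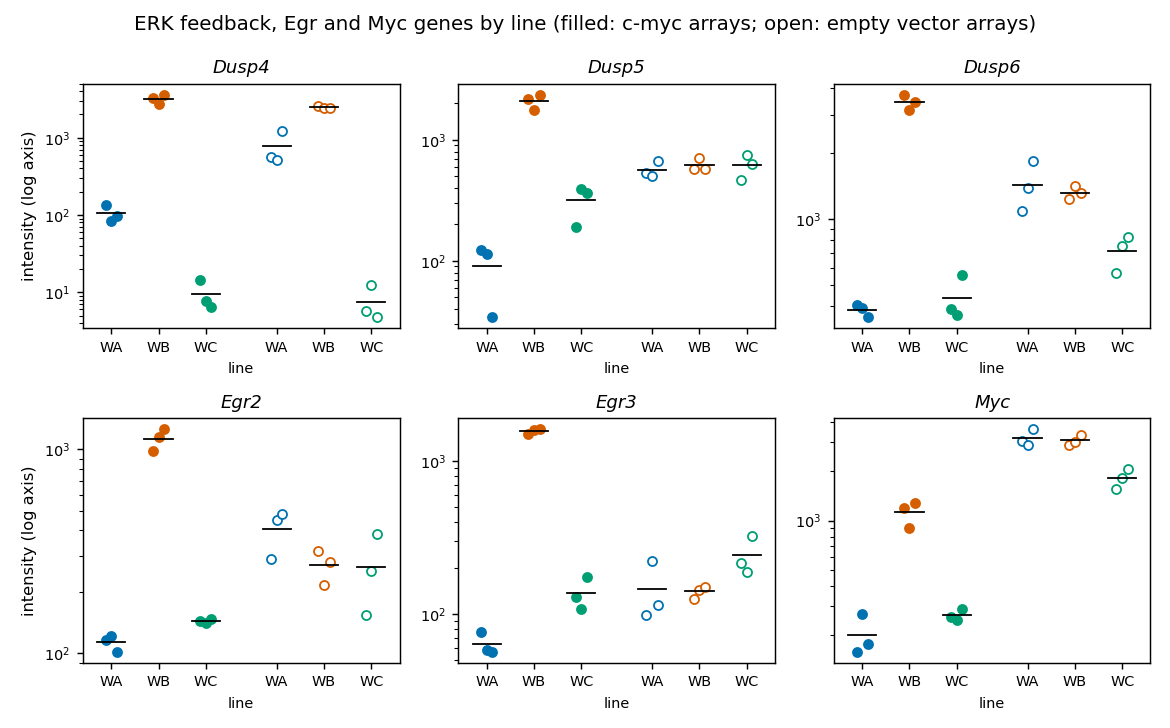
Intensity (log scale) of Dusp4, Dusp5, Dusp6, Egr2, Egr3 and Myc by line, 1 point per array and a bar at each mean, with the c-myc arrays (filled) left of the empty vector arrays (open). With c-myc the WB points lie above those of WA and WC. In empty vector cells the points of Dusp5 overlap in all 3 lines.

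Serum response factor, which acts downstream of ERK, binds a short AT-rich element called the CArG box, and immediate early promoters are known for it. The RefSeq promoter windows (mouse GRCm38.p6, 250 bases before to 50 after the start of transcription) held 13 of the 20 ERK genes that stood apart upward in WB. The CArG box was found on either strand in 2 of these 13 (15.4%), Dusp5 and Egr2, and in 488 of 27025 genes with a window (1.81%), counts too small to read a difference from. Both windows are shown because they belong to genes with large WB differences, with the CArG letters in capitals: Dusp5 lies at chr19:53528895-53529194 and Egr2 at chr10:67537316-67537615, both on the plus strand. In the Dusp5 window a pair of CArG boxes stand end to end.
Dusp5: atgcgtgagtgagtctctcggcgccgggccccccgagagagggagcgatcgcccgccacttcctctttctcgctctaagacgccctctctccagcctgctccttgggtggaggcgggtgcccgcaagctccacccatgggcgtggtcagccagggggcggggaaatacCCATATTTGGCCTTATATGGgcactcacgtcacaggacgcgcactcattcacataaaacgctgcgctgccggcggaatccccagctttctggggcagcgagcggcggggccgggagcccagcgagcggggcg
Egr2: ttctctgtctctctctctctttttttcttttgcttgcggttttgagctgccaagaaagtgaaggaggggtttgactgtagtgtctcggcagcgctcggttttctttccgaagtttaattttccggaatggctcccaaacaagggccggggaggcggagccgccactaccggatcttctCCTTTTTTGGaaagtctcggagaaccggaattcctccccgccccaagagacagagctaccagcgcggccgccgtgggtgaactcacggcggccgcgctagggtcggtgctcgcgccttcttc

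Endogenous mouse Myc followed the same lines. It had intensities of 159, 268 and 176 in WA, 1190, 896 and 1280 in WB, and 260, 248 and 289 in WC, a difference of -2.36 ± 0.19 for WA minus WB (adjusted p = 3.07e-06) and 1.97 ± 0.19 for WB minus WC (adjusted p = 1.63e-05). WB lay above both other lines without overlap, and WA against WC was -0.39 (adjusted p = 0.182). With the empty vector Myc averaged 3190 in WA, 3090 in WB and 1820 in WC, so that the c-myc mean was the lower in every line, and the WA minus WB difference changed by -2.41 ± 0.20 (adjusted p = 2.86e-08). Whether this mouse probe set also reads RNA of the human transgene was not tested, and the transgene's own level in each line was not analysed here. Mycn was not called by the F test and was bright by the probe set kept, at 14400, 16800 and 16100 in WA, 15100, 15700 and 14100 in WB, and 12700, 14500 and 14000 in WC, although WA minus WC was called without WA replicate 1 (0.26, adjusted p = 0.0477). Its 2 other probe sets were dim, averaging 45 and 14.1 over the c-myc arrays, with WA minus WC at -1.05 and 0.26, so that its level and differences depend on the probe set. Of the 12 autosomal genes tested of the network around MYC and MAX, 3 were called by the F test (25%, background 35.3%).

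Genes of cholesterol and fatty acid synthesis were lower in WC. The pathway makes sterols from acetyl-CoA and is switched on by SREBP factors when sterol falls, and Insig1 holds SREBP back as part of that loop. Of 29 genes listed, 24 autosomal genes were tested and 19 were called by the F test (79.2%, background 35.3%). Against WC, 20 of the 24 were called higher in WA (background 9.41%) and 14 higher in WB (background 11.2%), with none called lower in either. WC stood apart downward for 14 genes (background 3.98%), and for 16 without WC replicate 1. The medians were 0.62 for WA minus WC and 0.42 for WB minus WC.

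Insig1 had intensities of 1580, 1860 and 1740 in WA, 1500, 1380 and 1250 in WB, and 610, 661 and 587 in WC, a difference of 1.44 ± 0.10 for WA minus WC (adjusted p = 1.14e-06) and 1.12 ± 0.10 for WB minus WC (adjusted p = 8.68e-06). Cyp51, the lanosterol demethylase, had 3110, 4050 and 3150 in WA, 3320, 3230 and 3220 in WB, and 2020, 1800 and 1390 in WC. Idi1, which isomerizes the isoprenoid unit, had 5740, 5900 and 5000 in WA, 5150, 4880 and 4910 in WB, and 3710, 3420 and 2970 in WC. In all 3 genes the WC arrays lay below every WA and WB array. The SREBP genes themselves, Srebf1 and Srebf2, and the desaturase Scd1 were not called by the F test.

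With the empty vector the same 24 genes had medians of -0.15 for WA minus WC and -0.19 for WB minus WC, with 1 called higher and 7 lower in WA (background 11.6% and 12.2%) and 1 higher and 6 lower in WB (background 14% and 13.5%). The test of c-myc against empty vector differences called 20 of the 24 (background 16.3%). Idi1 averaged 5550 in WA, 4980 in WB and 3370 in WC with c-myc, against 2370 in WA, 2790 in WB and 3190 in WC with the empty vector, a change in the WA minus WC difference of 1.15 ± 0.13 (adjusted p = 5.79e-06). Insig1 averaged 1730 in WA, 1380 in WB and 619 in WC with c-myc, and 1150 in WA, 899 in WB and 935 in WC with the empty vector. The order of the lines for Idi1 thus differed between the vectors.

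SREBP factors bind the sterol regulatory element TCACNCCAC and, as basic helix-loop-helix proteins, E-boxes such as CACGTG, which MYC binds too. Of the 14 genes that stood apart downward in WC, 11 had a RefSeq window. The letters TCACNCCAC were found on either strand in 1 of them, Hmgcs1 (9.09%), and in 388 of all genes with a window (1.44%), and CACGTG in 3 (27.3%), Hsd17b7, Insig1 and Sc5d, beside 8.09% of all genes. Both counts are too small to read a difference from. Hmgcs1, which makes HMG-CoA, averaged 11700 in WA, 10900 in WB and 6790 in WC. The Hmgcs1 window, at chr13:119690101-119690400 on the plus strand, is shown with the element in capitals because it is the only 1 of the 11 that holds it.
Hmgcs1: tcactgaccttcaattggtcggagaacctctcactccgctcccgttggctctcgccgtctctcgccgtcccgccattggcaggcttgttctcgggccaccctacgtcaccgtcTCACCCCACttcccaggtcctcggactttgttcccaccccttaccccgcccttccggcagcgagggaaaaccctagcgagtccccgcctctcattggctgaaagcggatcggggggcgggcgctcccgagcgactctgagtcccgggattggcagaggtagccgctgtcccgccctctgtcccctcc

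Several targets of p53, which induces arrest and death genes after damage or oncogene stress, were higher in WC. Of 32 targets listed, 28 autosomal genes were tested and 22 were called by the F test (78.6%, background 35.3%). Against WC, 13 were called lower and 2 higher in WA (background 10.5% and 9.41%), and 14 lower and 4 higher in WB (background 12.8% and 11.2%). WC stood apart upward for 10 (background 4.42%), and for 10 without WC replicate 1. The median was -0.61 for WA minus WC, -0.29 for WB minus WC and -0.14 for WA minus WB. The gene for p53 itself, Trp53, was not analysed here.

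Cdkn1a, which codes for the CDK inhibitor p21, had intensities of 364, 197 and 177 in WA, 417, 373 and 520 in WB, and 1400, 806 and 1250 in WC, a difference of -2.15 ± 0.25 for WA minus WC (adjusted p = 8.19e-05). Ccng1, cyclin G1, had 816, 883 and 839 in WA, 683, 800 and 612 in WB, and 2670, 1870 and 2050 in WC. Perp, an apoptosis effector of p53, had 30, 13.7 and 58.8 in WA, 51.5, 64.4 and 21.8 in WB, and 859, 652 and 521 in WC (WA minus WC -3.66 ± 0.35, adjusted p = 1.64e-05). The WC arrays were above all others in these 3 genes. Mdm2, the ubiquitin ligase that p53 induces against itself, was graded, at 1630, 1660 and 1550 in WA, 2030, 1790 and 2340 in WB, and 2460, 2490 and 3270 in WC.

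Among the p53 targets 13 of 28 were called by the test of c-myc against empty vector differences (background 16.3%), and with the empty vector the medians were -0.18 for WA minus WC and -0.08 for WB minus WC. For Cdkn1a, Ccng1 and Perp that test did not pass the threshold: its adjusted p was 0.0553 for Cdkn1a, 0.127 for Ccng1 and 0.461 for Perp. In the empty vector arrays Cdkn1a averaged 397 in WA, 319 in WB and 1520 in WC, while Perp averaged 43.9 in WA, 35.7 in WB and 979 in WC. Both were thus highest in WC with either vector. Phlda3, an inhibitor of AKT, was low in WA instead, averaging 1250 in WA, 2390 in WB and 2340 in WC.

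Of 28 regulators of the senescence barrier and cell cycle tested, a list that also holds Cdkn1a, 18 were called by the F test (64.3%, background 35.3%). Cdkn2a, the locus of p16INK4a and p19ARF, had 523, 489 and 579 in WA, 718, 1070 and 712 in WB, and 500, 544 and 604 in WC. Its difference was -0.61 ± 0.16 for WA minus WB (adjusted p = 0.0142) and 0.56 for WB minus WC (adjusted p = 0.0216), and the WA minus WB call was lost without WB replicate 2 (-0.42, adjusted p = 0.0601) or without WA replicate 2 (-0.56, adjusted p = 0.0598). Its neighbour Cdkn2b had 1330, 1480 and 1340 in WA, 1290, 1340 and 1240 in WB, and 1570, 1000 and 809 in WC, and was not called, while without WC replicate 1 its WA minus WC difference was 0.60 (adjusted p = 0.0014). Cdkn2c, which codes for p18INK4c, averaged 1210 in WA, 1950 in WB and 3550 in WC (WA minus WC -1.53 ± 0.12, adjusted p = 2.55e-06). Ccnd1, cyclin D1, averaged 1980 in WA, 4420 in WB and 3330 in WC.

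Ribosome biogenesis, the process c-MYC is best known for, had few line differences with c-myc. Of 32 ribosome biogenesis genes tested, 6 were called by the F test (18.8%, background 35.3%), with medians of 0.15 for WA minus WB, 0.08 for WA minus WC and 0.05 for WB minus WC. The count was 15 without WC replicate 1, beside 5053 of the 12525 autosomal genes, and 10 without WC replicate 3, beside 4265. Without WC replicate 1 the ribosome biogenesis share was thus no longer below that of all genes. In empty vector cells, 19 of the 32 were called higher in WA than in WC (median 0.40, background 11.6%) and 22 higher in WB than in WC (median 0.48, background 14%), and 10 of the 32 were called by the test of c-myc against empty vector differences (background 16.3%). Pes1, of the large ribosomal subunit pathway, averaged 2300 in WA, 1720 in WB and 1870 in WC with c-myc, and 1260 in WA, 995 in WB and 770 in WC with the empty vector. The 26 nucleotide, folate and polyamine genes had medians of 0.07 for WA minus WC and -0.01 for WB minus WC with c-myc, beside 0.37 for WA minus WC and 0.44 for WB minus WC with the empty vector, and 12 were called by the F test (46.2%, background 35.3%).

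DNA replication and mitosis genes had small differences, with medians of 0.06 for WA minus WB, 0.13 for WA minus WC and -0.01 for WB minus WC. By the F test 23 of 40 were called (57.5%, background 35.3%), and 14 without the intensity trend, beside 3692 of the 12525 autosomal genes. With the empty vector 21 of the 40 were called higher in WB than in WC (median 0.41, background 14%). With c-myc 8 were called higher and 5 lower (background 11.2% and 12.8%). Mki67, the proliferation marker Ki-67, had 2940, 2710 and 2790 in WA, 1660, 1970 and 2150 in WB, and 3610, 3840 and 3430 in WC, with no overlap between lines (WB minus WC -0.91 ± 0.10, adjusted p = 3.24e-05). Orc6, of the origin recognition complex, ran the other way, averaging 2050 in WA, 2460 in WB and 1420 in WC.

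Oxidative phosphorylation genes were higher in WA than in WB. Of 34 autosomal genes tested, 19 were called higher in WA (background 12%) and 1 lower (background 11.5%), with a median of 0.26. The F test called 23 (67.6%, background 35.3%), and 12 without the intensity trend, when it called 3692 of the 12525 autosomal genes. Uqcrc2, a core subunit of complex III, had 4010, 3960 and 4190 in WA, 2590, 2850 and 2340 in WB, and 4170, 4390 and 4290 in WC (WA minus WB 0.64 ± 0.08, adjusted p = 0.000121). Atp5a1, the alpha subunit of ATP synthase, averaged 14000 in WA, 10200 in WB and 13800 in WC. WB was below both others in these 2 genes. Sdha, of complex II, was lowest in WC instead, averaging 5420 in WA, 4870 in WB and 3270 in WC. In the empty vector arrays 3 of the 34 were called higher in WA than in WB (background 9.54%) and 1 lower (background 10.2%), with a median of 0.09, and 6 were called by the test of c-myc against empty vector differences, a share near the background of 16.3%.

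Interferon-stimulated genes had median line differences nearer to 0 with c-myc than with the empty vector. For WB minus WC the 35 genes had a median of -0.30 with 1 called higher and 6 lower (background 11.2% and 12.8%), beside 0 higher and 21 lower with the empty vector (background 14% and 13.5%). For WA minus WC the medians were -0.39 with c-myc and -0.93 with the empty vector, and 17 of the 35 were called by the test of the difference (background 16.3%). Ifitm1, a membrane protein that restricts virus entry, stood out in WA, with 1560, 1560 and 1430 in WA, 85, 172 and 277 in WB, and 347, 273 and 234 in WC. Of the 22 genes of the integrated stress response, 10 were called by the F test (45.5%, background 35.3%) and 14 by the test of c-myc against empty vector differences (background 16.3%), and WC stood apart upward for 6 (background 4.42%), also without WC replicate 1. Nupr1, a stress-induced chromatin protein, had 210, 208 and 301 in WA, 433, 469 and 410 in WB, and 1350, 1110 and 1290 in WC (WA minus WC -2.29 ± 0.15, adjusted p = 6.03e-07).

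**Figure D4:**
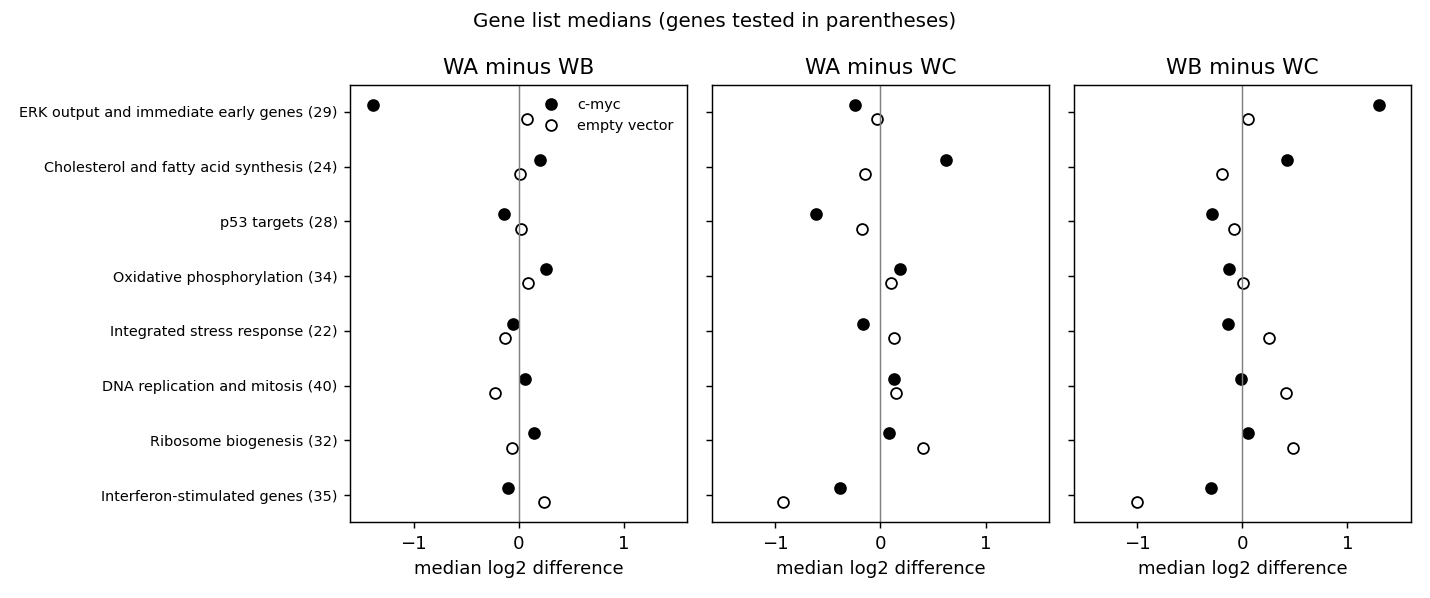
Median log2 difference of each gene list for WA minus WB, WA minus WC and WB minus WC, with c-myc as filled and the empty vector as open circles and 1 row for each of 8 lists. The ERK list lies at -1.39 for WA minus WB and 1.30 for WB minus WC with c-myc, and near 0 with the empty vector.

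Matrix and adhesion genes divided the lines by gene. Of 43 proteoglycan, matricellular and elastic fibre genes, 35 were called by the F test (81.4%, background 35.3%), with 21 lower and 5 higher in WA than in WB (background 11.5% and 12%). Postn, periostin, had 4750, 5060 and 5230 in WA, 16300, 14300 and 13700 in WB, and 1160, 1560 and 1060 in WC, and all 3 lines differed without overlap. Thbs2, thrombospondin 2, averaged 479 in WA, 2760 in WB and 221 in WC. Collagens ran the other way: 14 of 21 were called by the F test (66.7%, background 35.3%), 9 higher and 2 lower in WA than in WC (background 9.41% and 10.5%), and WC stood apart downward for 8 (background 3.98%), also without WC replicate 1. Col6a3, a chain of microfibril-forming collagen VI, had 8020, 8460 and 9660 in WA, 3960, 4930 and 4690 in WB, and 1830, 2120 and 1900 in WC (WA minus WC 2.15 ± 0.10, adjusted p = 3.87e-08).

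Secreted signals and their receptors differed as well. Of 33 growth factors, receptors and binding proteins, WB stood apart upward for 11 (background 5.57%, and 10 without WC replicate 1), and of 31 BMP and TGF-beta pathway genes for 9 (10 without WC replicate 1), though most members of both lists did not stand apart there. Igfbp6, which binds IGF2, averaged 187 in WA, 2160 in WB and 174 in WC, while Gas6, the ligand of AXL, averaged 253 in WA, 2100 in WB and 411 in WC (WA minus WB -2.95 ± 0.20, but -0.21 by its other probe set). Id1, a BMP target, had 1380, 1320 and 1300 in WA, 6120, 6160 and 5680 in WB, and 2100, 2330 and 2580 in WC, while Tgfb3 was lowest in WB, averaging 5150 in WA, 601 in WB and 2260 in WC. Fst, follistatin, which traps activin, averaged 60.2 in WA, 1520 in WB and 412 in WC. Of 43 cytokines and chemokines listed, 29 autosomal genes were tested. None of these was called higher and 11 lower in WA than in WB (background 12% and 11.5%). Cxcl12, the ligand of CXCR4, had 212, 182 and 196 in WA, 11400, 11200 and 10500 in WB, and 3630, 2970 and 2390 in WC (WA minus WB -5.65 ± 0.13, adjusted p = 9.7e-11).

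Wnt genes differed one by one. Of 37 listed, 28 were tested and 14 of those were called by the F test (50%, background 35.3%). Rspo2, a secreted amplifier of Wnt signals needed in the limb, had 124, 27.7 and 94 in WA, 245, 233 and 291 in WB, and 5380, 2460 and 1610 in WC (WA minus WC -4.87 ± 0.42, adjusted p = 5.48e-06). WC was above both other lines on every array, and a second probe set gave -0.78 for WA minus WC. Wnt5a averaged 126 in WA, 783 in WB and 468 in WC with c-myc, and 1470 in WA, 1720 in WB and 861 in WC with the empty vector, a change in the WA minus WC difference of -2.47 ± 0.20 (adjusted p = 1.81e-07).

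Several imprinted genes, which are read from 1 parental allele, differed by large factors. Of 30 listed, 27 had a probe set and 21 passed the filter. Of these, 13 were called by the F test (61.9%, background 35.3%) and 5 by the test of c-myc against empty vector differences (background 16.3%). A gene that is on in 1 line can pass the filter through that line alone, so these shares are a description. The same holds for the cytokine, Wnt and cell type marker lists. Dlk1, a Notch-like inhibitor of adipocyte differentiation, had 1130, 658 and 640 in WA, 14600, 14100 and 13200 in WB, and 258, 272 and 346 in WC (WB minus WC 5.48 ± 0.18, adjusted p = 1.39e-09, and 1.36 by a dim second probe set). Peg3, a zinc finger protein, had 1470, 1540 and 1550 in WA, 119, 127 and 193 in WB, and 64.2, 65.6 and 68.5 in WC. The order of the lines thus differed by gene: Dlk1 was highest in WB and Peg3 in WA, while both were lowest in WC. Plagl1 was lowest in WB, averaging 3500 in WA, 776 in WB and 3480 in WC, while the adaptor gene Grb10 was lowest in WC, averaging 11300 in WA, 11600 in WB and 4460 in WC.

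Among the genes with the largest gap to both other lines, WA was marked upward by Slc6a15, an amino acid transporter of neurons, and by Crabp1, which binds retinoic acid. Crabp1 had 3570, 3510 and 3500 in WA, 171, 216 and 192 in WB, and 136, 177 and 159 in WC (WA minus WB 4.04 ± 0.13, adjusted p = 1.57e-09). Efemp1, a fibulin, had 2430, 2480 and 2550 in WA, 37, 27.5 and 35.1 in WB, and 341, 170 and 214 in WC. Downward, WA was dim for Cd34, a sialomucin of progenitor and stromal cells, at 81.1, 89.1 and 64.5 in WA, 2000, 1930 and 2040 in WB, and 1170, 842 and 788 in WC.

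WB was marked upward by Serpinb2, a plasminogen activator inhibitor, at 15.3, 19.5 and 28.7 in WA, 2000, 1720 and 1960 in WB, and 3.46, 5.17 and 15.8 in WC. Downward it was marked by Cyba, the p22phox subunit of NADPH oxidases, at 751, 796 and 899 in WA, 5.29, 9.27 and 7.15 in WB, and 2850, 2630 and 2860 in WC (WB minus WC -6.53 ± 0.13, adjusted p = 2.69e-11). Cyba was near background in WB with the empty vector too, where it averaged 1620 in WA, 6.29 in WB and 3640 in WC.

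WC was marked upward by Il1rn, the interleukin 1 receptor antagonist, at 89.1, 67.1 and 86.4 in WA, 71.1, 59.3 and 126 in WB, and 7220, 4370 and 1560 in WC (WA minus WC -5.16 ± 0.42, adjusted p = 4.01e-06). The 3 WC arrays were themselves widely spread. Downward, Pdzrn3, a ubiquitin ligase, had 805, 837 and 917 in WA, 1980, 1910 and 2040 in WB, and 6.17, 24.4 and 6.81 in WC, while its other probe set gave only 0.51 for WA minus WC.

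The line differences that changed most between the vectors included 4 genes that were dim with c-myc. Ppbp, a CXC chemokine, averaged 19.3 in WA, 78.2 in WB and 96.4 in WC with c-myc, and 110 in WA, 150 in WB and 2750 in WC with the empty vector, a change in the WB minus WC difference of 3.72 ± 0.39 (adjusted p = 1.68e-06). Slc14a1, a urea transporter, averaged 96.2 in WC with c-myc and 840 with the empty vector. Serpinb1a and the complement protease gene C1s1 were likewise below 100 on average in all c-myc lines. In the opposite direction stood Dusp5, Egr3, Ptgs2, the inducible cyclooxygenase, and Bhlhe40, a clock and stress factor. Ptgs2 had 1110, 805 and 909 in WA, 6340, 6190 and 6520 in WB, and 787, 1870 and 2920 in WC with c-myc, while with the empty vector it averaged 4440 in WA, 1650 in WB and 3240 in WC (change in WA minus WB -4.17 ± 0.45, adjusted p = 9e-07).

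Line differences were not spread evenly over the genome. Chromosome 16 had the highest share of called genes among the 19 autosomes, 228 of 426 (53.5%, against 35.3% overall). Of its genes 8 were called higher and 182 lower in WA than in WB (background 12% and 11.5%), and 175 higher and 12 lower in WB than in WC (background 11.2% and 12.8%). The median difference over the chromosome was -0.33 for WA minus WB, -0.041 for WA minus WC and 0.296 for WB minus WC. For WA minus WB the median was -0.352 with v-src and -0.36 with the empty vector, and for WB minus WC it was 0.367 with v-src and 0.309 with the empty vector.

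Array by array, each gene was set against its mean over the 9 c-myc arrays and each chromosome against the median of its array. For chromosome 16 the median log2 deviation was -0.124, -0.139 and -0.132 in the WA arrays, 0.247, 0.253 and 0.203 in the WB arrays, and -0.115, -0.104 and -0.101 in the WC arrays. WB lay above both other lines on every array. Chromosome 7 leaned the other way for WB against WC, with 30 of 994 genes called higher and 285 lower in WB (background 11.2% and 12.8%). Its median was -0.262. Chromosome 10 had 32 of 643 called higher and 166 lower in WB than in WC (same background), with a median of -0.198. Chromosome 18 had 16 of 325 called higher and 75 lower, with a median of -0.179. All of these had a like shift with the empty vector, -0.292 for chromosome 7, -0.197 for chromosome 10 and -0.166 for chromosome 18. DNA copy number was not measured.

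**Figure D5:**
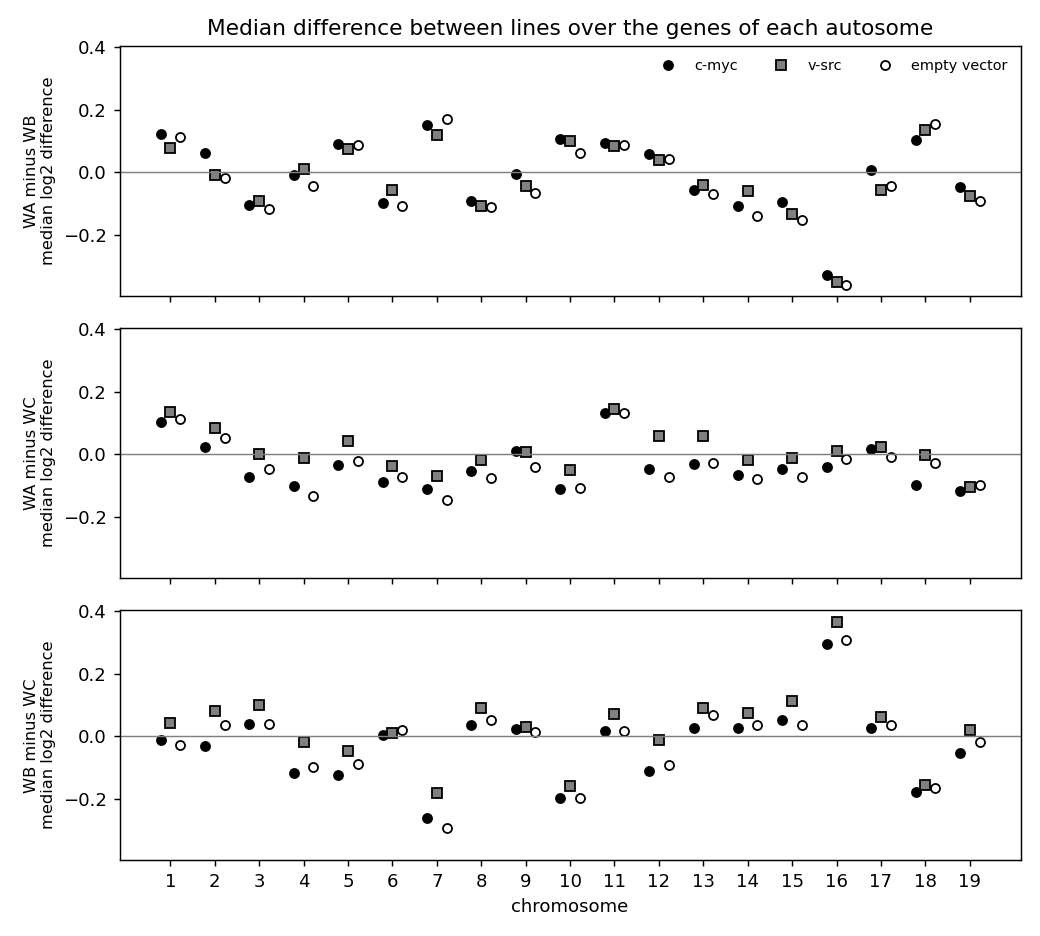
Median log2 difference of all genes tested on each autosome for WA minus WB, WA minus WC and WB minus WC, with c-myc (filled circles), v-src (squares) and empty vector (open circles). Chromosome 16 lies at -0.33 for WA minus WB and 0.296 for WB minus WC with c-myc, and chromosome 7 at -0.262 for WB minus WC.

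Summed markers of several other cell types differed by line. Summed intensities of the 9 adipocyte markers with a probe set, 5 of which stayed below 100 on every array, were 1216 to 1282 in WA, 2015 to 2359 in WB and 1602 to 1855 in WC. Mesothelial markers summed to 381.6 to 618 in WA, 1082 to 1342 in WB and 645.4 to 786.3 in WC, and cartilage and bone markers to 1675 to 2348 in WA, 2354 to 2653 in WB and 2926 to 4339 in WC. Contractile markers, which cultured fibroblasts express, summed to 72440 to 89250 in WA, 84350 to 93230 in WB and 72570 to 96560 in WC. The sums did not overlap between lines for adipocyte, mesothelial, and cartilage and bone markers, but each rests on few genes. Sums of skeletal muscle, neural and glial, epithelial, endothelial, and macrophage and blood markers overlapped between some of the lines. Epithelial markers, for instance, summed to 2642 to 3398 in WA, 2107 to 3418 in WB and 2171 to 5272 in WC. Of 8 mesothelial and 14 cartilage and bone markers with a probe set, 5 each were below 100 in all lines. The F test called 3 of 4 adipocyte, 1 of 3 mesothelial and 4 of 8 cartilage and bone markers tested (background 35.3%). Lpl, the brightest adipocyte marker, averaged 688 in WA, 1400 in WB and 57.4 in WC, although the adipocyte sum was higher in WC than in WA. Their part in the differences above was not tested, and fewer cells of a type and less RNA per cell cannot be told apart on these arrays.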

How the data were processed

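The authors deposited, for 26 arrays, a linear intensity per probe set (45101 in all). MAS5 made them, per the submitters' processing notes; its version is not given in the sources used here, and no detection calls were used. The mean after trimming 2% at each end was 500 on all arrays. Titles and characteristics gave groups and replicate numbers. The free-text sample description speaks of other material and was not used, and v-src WB replicate 1 was not analysed here.

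Of the probe sets, 34945 named 1 gene, 932 several and 9211 none in the platform annotation, and 64 controls were left out. Chromosomes came from the RefSeq gene table of GRCm38.p6, used for names and chromosomes only. From the deposited intensity, log2(value + 23) was taken (23 is the 20th percentile rounded), probe sets at or below the 40th percentile of mean log2 were dropped, and the brightest remaining one per gene was kept: 13018 genes of 18193. Other probe sets of a gene can differ from the one kept, also in direction.

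An eBayes fit with a trend over intensity (limma 3.58.1, R 4.3.3) estimated 3 means from the 9 c-myc arrays (6 residual and 6.16 prior degrees of freedom). The c-myc and empty vector line differences were compared in a fit of 9 means to 26 arrays (17 residual and 6.2 prior). The number of arrays limits the precision. The script was tested on simulated data.

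Named genes were, per line, the 5 largest rises and falls against both other lines, up to 4 members per list by F test p and up to 2 well known members not called, the 4 largest changes between vectors in each direction, and 7 set growth regulators; Srebf1, Srebf2 and Scd1 were the well known members of their list. The genes named as standing apart in the Hox list, and Hmgcs1, Hsd17b7 and Sc5d, fall outside that rule and were chosen after their values were seen. The members, lists and rules were chosen with earlier results of these data known.

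Alternatives were the pseudocount, the filter, quantile normalization, the mean of a gene's probe sets, no intensity trend, the replicate number as a block, all 26 arrays in 1 fit, and leaving out each array.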

Additional observations from a re-analysis of the deposited data

Results flagged for a closer look

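The genes below were picked out because their difference between 2 lines was of another size with c-myc than with the empty vector, tested in limma as the c-myc line difference minus the empty vector line difference and adjusted over all genes tested. Values are that change on the log2 scale for the pair of lines in which it was largest. The cause of each was not tested, and none of the groups of 3 arrays is large enough to single out 1 array as an outlier.

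For WA minus WB the change was -4.22 for Dusp5, -4.17 for Egr3, -4.17 for Ptgs2, -3.90 for Bhlhe40, -3.61 for Egr2 and -3.17 for Dusp6. It was -2.90 for Dusp4, -2.41 for Myc, -2.16 for Cxcl12, -1.56 for Irx3, -1.27 for Postn, -0.99 for Cyba, -0.99 for Id1, -0.96 for Mdm2 and -0.76 for Ccnd1. In the other direction WA minus WB changed by 3.53 for C1s1, 2.25 for Ifitm1, 1.32 for Plagl1 and 0.62 for Igfbp6. The ERK-responsive genes and Myc in this list had the more negative WA minus WB differences with c-myc. The list holds only genes that passed the test, some picked for the largest negative changes, so it cannot speak for ERK genes at large.

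For WA minus WC the change was -2.47 for Wnt5a, -1.80 for Foxd1, -1.47 for Nupr1, -1.42 for Thbs2 and -0.84 for Phlda3. It was 3.78 for Serpinb1a, 3.56 for Slc14a1, 3.40 for Efemp1, 2.67 for Slc6a15, 2.33 for Crabp1, 1.41 for Cd34, 1.29 for Peg3, 1.15 for Idi1, 1.05 for Col6a3 and 0.40 for Sdha.

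For WB minus WC the change was 3.72 for Ppbp, 1.79 for Thy1, 1.25 for Serpinb2, 1.18 for Insig1, 1.14 for Cyp51, -0.79 for Mki67 and -0.48 for Pes1. The cholesterol genes had positive differences to WC with c-myc, while with the empty vector WA minus WC was -0.43 for Idi1, and WB minus WC was -0.06 for Insig1 and -0.23 for Cyp51.

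The calls nearest the threshold were those of Igfbp6 (adjusted p of the F test 0.0498), Postn (0.0283) and Pes1 (0.0255). With the mean of all probe sets of a gene, the changes of Mdm2 (-0.25, adjusted p = 0.626) and Pes1 (-0.22, adjusted p = 0.426) were no longer called. The same was true of Thbs2 (-0.92, adjusted p = 0.0533).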

How the results depend on the processing

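The counts of called genes in all 5 comparisons stayed within 1.5 times the reported ones under every alternative run. No named gene that was tested changed sign in the pair of lines with its largest difference, the only pair followed for each gene. The F test count ran from 3692 without the intensity trend to 5041 with all 26 arrays in 1 fit. Leaving out 1 array gave 3530 (without WB replicate 2) to 5053 genes (without WC replicate 1) by the F test, 2162 to 3652 for WA against WB, 1724 to 2934 for WA against WC, 2239 to 3274 for WB against WC, and 1665 to 2677 for the comparison with the empty vector. Replicate numbers shared by the lines did not pair the arrays: deviations of same-numbered arrays correlated with r between -0.098 and 0.083. With the replicate number as a block the counts were 3965 by the F test, 2661, 2202 and 2717 for WA against WB, WA against WC and WB against WC, and 1964 for the comparison with the empty vector. Among named genes, WA minus WC of Slc14a1 lost its call in 8 alternatives and that of Ppbp without WC replicate 3 (-1.36, adjusted p = 0.0518). The change of Igfbp6 between vectors lost its call in 19 alternatives, that of Postn in 9 and that of Pes1 in 6. That of Sdha lost it in 2, and those of Thbs2 and Mdm2 in 1 each. The Hox genes called by the F test numbered 9 with a filter at the 60th percentile, beside 4301 of 9358 autosomal genes. That count covers only the Hox genes that passed the stricter filter and cannot be set against the 20 tested above. Those of the MYC network numbered 5 with the mean of all probe sets, beside 4278 of 12525 autosomal genes. Signals near background limit what dim genes can show, since no detection calls were used. The chromosome 16 medians ran from -0.407 to -0.256 for WA minus WB and from 0.177 to 0.388 for WB minus WC over the alternatives.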

Other observations

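The F test among the c-myc lines called 13 of 23 antioxidant and glutathione genes tested (56.5%, background 35.3%). Of 26 extracellular proteases and inhibitors it called 15 (57.7%), of 28 integrins, cadherins and adhesion receptors 15 (53.6%), and of 19 glycolysis genes 10 (52.6%). Of 13 antigen presentation genes 5 were called (38.5%), a share near that of all genes, and 3 without the intensity trend (3692 of the 12525 autosomal genes). WB stood apart upward for 8 of the adhesion genes, against 5.57% of all autosomal genes, and for 9 without WC replicate 1.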
